A study of Mus musculus with 4 samples.

Results

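The genes of oxidative phosphorylation are described here, with the members encoded in the nucleus set against those encoded in the mitochondrial genome. The nuclear members were chosen by symbol: those starting with Ndufa (without the assembly factors named Ndufaf), Ndufb, Ndufc, Ndufs, Ndufv, Uqcr, Cox4 to Cox8 or Atp5, with Sdha, Sdhb, Sdhc and Sdhd, and without pseudogenes. The mitochondrial members are all genes whose symbol starts with mt-. In all, 98 of the 27998 genes in the files were members, of which 85 were nuclear and 13 were mt- genes. Complex I had 37 nuclear and 7 mt- members, complex II had 4 nuclear members and no mt- member, complex III had 8 and 1, complex IV had 19 and 3, and complex V had 17 and 2.

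Single cells were live, EpCAM-positive and CD45-negative cells sorted from the small intestinal crypts of mice aged 8 weeks. The 2 libraries labelled slc7a5 fl/fl came from mice with floxed Slc7a5, which encodes a transporter of large neutral amino acids, and the 2 libraries labelled slc7a5 IEC-KO came from littermates in which villin-Cre, active in the intestinal epithelium, deletes a floxed exon. The sources name 4 mice without dividing them among the libraries, so the p-values below measure the spread between these libraries only. The files held unique molecular identifiers (UMIs), each standing for a captured transcript, from a kit that reads transcripts near their 3′ end. Slc7a5 itself had 140 and 128 UMIs in the libraries labelled fl/fl and 350 and 615 in those labelled IEC-KO. In Paneth cells its scaled level was higher in the latter by 1.64 on the log2 scale (SE 0.15, edgeR adjusted p = 1.27e-07). A read near the 3′ end can lie away from the deleted exon, so this count checks no label.

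Oxidative phosphorylation moves electrons from NADH (complex I) and succinate (complex II) through complex III to oxygen at complex IV, and complex V, the ATP synthase, uses the proton gradient that results. Complexes I, III, IV and V are built from subunits of both genomes, whereas complex II is nuclear throughout. The mitochondrial genome is transcribed as long precursors on both strands that are cut into shorter RNAs, while each nuclear member has a promoter of its own. Paneth cells are the secretory cells at the crypt base that make antimicrobial alpha-defensins, the products of the Defa genes.

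The mt- genes lie on the mitochondrial genome of GRCm38 between mt-Nd1, which starts at position 2751, and mt-Cytb, which ends at position 15288. Of the 13, only mt-Nd6 is on the minus strand. Some neighbours overlap, so that the shared bases lie in both genes. How reads from these bases were counted was not tested. The following stretches show the overlaps of the pairs named in capitals, with 30 bases on each side, from GENCODE M21 transcripts. Further overlaps are not shown, namely of mt-Atp6 with mt-Co3 at position 8607 and of mt-Nd5 with mt-Nd6, which lie on opposite strands. The shared bases may touch the values of the shorter gene of each pair, which was not tested. The first spans chrM:7897-7999, with 43 shared bases, and the second chrM:10137-10203, with 7 shared bases, both on the plus strand.
mt-Atp8 and mt-Atp6: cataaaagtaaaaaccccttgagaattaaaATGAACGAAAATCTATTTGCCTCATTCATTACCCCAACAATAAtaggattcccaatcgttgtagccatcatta
mt-Nd4l and mt-Nd4: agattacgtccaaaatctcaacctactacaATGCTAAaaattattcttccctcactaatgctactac

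For the nuclear members, RefSeq promoters (GRCm38.p6) were at hand for 67 of 85, as 72 sequences. The 250 bases before each start were searched on both strands for the letters GCATGCG, the centre of the motif of NRF1, a factor known for its sites at respiratory genes, and for CCGGAAG, a motif of the ETS family. The first was in 12.5% of the member sequences against 3.02% of all 32851 promoter sequences, and the second in 16.7% against 6.91%. Such a match is a description of letters and not a binding site. The promoters below belong to members that recur in the results, namely the ubiquitous subunit Cox6a1, the member Cox6b1 that was lower in both classes, Cox7a1, which was lower, and Cox7a2l, which was higher. These directions are on the TMM scale explained below. Scaled by library size only, Cox6b1 had a positive difference in Paneth cells and Cox7a1 did not pass the test there. Capitals mark the letters of either motif, and in Cox6a1 the first run in capitals holds the NRF1 letters on both strands, overlapping. The windows are chr5:115348959-115349208, chr7:30626115-30626364, chr7:30183921-30184170 and chr17:83514334-83514583, on the minus strand except for Cox7a1, and the window of Cox7a2l lies inside the longer gene span of GENCODE.
Cox6a1: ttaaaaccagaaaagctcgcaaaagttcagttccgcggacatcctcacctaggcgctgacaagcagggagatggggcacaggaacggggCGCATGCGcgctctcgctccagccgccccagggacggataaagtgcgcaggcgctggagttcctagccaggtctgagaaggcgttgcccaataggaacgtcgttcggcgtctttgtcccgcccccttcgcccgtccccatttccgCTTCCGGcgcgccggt
Cox6b1: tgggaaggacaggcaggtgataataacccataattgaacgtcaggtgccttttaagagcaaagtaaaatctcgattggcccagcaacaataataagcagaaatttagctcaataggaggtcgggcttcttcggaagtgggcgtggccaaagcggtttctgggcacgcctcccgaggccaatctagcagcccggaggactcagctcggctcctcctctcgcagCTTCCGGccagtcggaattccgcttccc
Cox7a1: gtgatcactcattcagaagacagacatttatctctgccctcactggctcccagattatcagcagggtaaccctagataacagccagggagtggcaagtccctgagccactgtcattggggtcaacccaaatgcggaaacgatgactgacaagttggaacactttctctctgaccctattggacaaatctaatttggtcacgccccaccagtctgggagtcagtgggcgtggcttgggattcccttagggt
Cox7a2l: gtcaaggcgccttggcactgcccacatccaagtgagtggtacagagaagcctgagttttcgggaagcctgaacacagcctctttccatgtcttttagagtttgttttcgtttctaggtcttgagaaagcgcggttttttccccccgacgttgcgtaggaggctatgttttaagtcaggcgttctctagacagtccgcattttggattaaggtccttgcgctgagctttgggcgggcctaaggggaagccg

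Cells were split by their share of UMIs from 22 Defa genes. Those at 30% or more are called Paneth cells, numbering 2102 and 2007 in the libraries labelled fl/fl and 2830 and 3122 in those labelled IEC-KO. Those under 20% are called other cells, numbering 1449 and 1127 against 6266 and 5709, and the 82 to 908 cells per library in between entered neither class. The 10 Paneth markers took 32.1% to 34.8% of the UMIs of the Paneth cells and 5.69% to 6.76% of those of the other cells, and the goblet markers took 4.07% to 6.18% and 13.3% to 14.8%. The Paneth markers include Defa22 and Defa24, so the class rule itself fixes part of their contrast. Most other cells held Defa UMIs as well, and this differed by genotype. The lower quartile of their Defa share was 5.23% and 5.85% in the libraries labelled fl/fl and 3.12% and 4.09% in those labelled IEC-KO. Where these UMIs came from was not tested. Depth moved with genotype: the median Paneth cell held 45862 and 52128 UMIs in the libraries labelled fl/fl against 12548.5 and 18370 in those labelled IEC-KO, and the median other cell 10580 and 11467 against 5685 and 8002. Defa genes took 56.2% and 58.7% of the Paneth UMIs in the libraries labelled fl/fl and 47.0% and 48.6% in those labelled IEC-KO, which bears on every share and scaling below. Any 2 libraries shared 14 to 132 cell barcodes.

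The mt- members were lower against the nuclear members in both classes of the libraries labelled IEC-KO. In Paneth cells there were 0.743 and 0.743 mt- UMIs for each nuclear-member UMI in the libraries labelled fl/fl, and 0.458 and 0.465 in those labelled IEC-KO. The means were 0.743 ± 0.000378 and 0.461 ± 0.00469 (SD, n = 2 each), or 0.621 of the fl/fl value. In other cells the ratio was 0.618 and 0.614 against 0.513 and 0.525, with means of 0.616 ± 0.00278 and 0.519 ± 0.00881 (SD, n = 2 each), or 0.842 of the fl/fl value. The libraries of the genotypes did not overlap in either class, and the gap was larger in Paneth cells. In the libraries labelled fl/fl, Paneth cells had the higher ratio of the 2 classes, whereas over all cells of those labelled IEC-KO the other cells did, an order that turned in most ranges of matched depth below. Being taken within a library and a class, this ratio does not depend on how libraries are scaled, and no p was computed for it.

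The shares behind the ratio moved differently in the 2 classes. In Paneth cells the nuclear members took 1.15% and 1.09% of all UMIs in the libraries labelled fl/fl and 1.59% and 1.68% in those labelled IEC-KO. The mt- members took 0.853% and 0.812% against 0.728% and 0.782%. With the Defa UMIs left out of the total, the nuclear share of Paneth cells was 2.63% ± 0.0242 against 3.13% ± 0.193, and the mt- share was 1.96% ± 0.0170 against 1.45% ± 0.104 (SD, n = 2 each). The nuclear share of Paneth UMIs was thus higher and the mt- share lower in the libraries labelled IEC-KO on both totals. In other cells both shares were lower, at 4.73% and 4.79% against 4.13% and 4.02% for the nuclear members and 2.92% and 2.95% against 2.12% and 2.11% for the mt- members. The other cells of the genotypes fell largely into different clusters, however. In transit amplifying and stem-like cells the nuclear share overlapped, at 4.88% and 4.88% against 4.91% and 4.71%. It overlapped in enterocyte-like cells too, at 7.25% and 7.39% against 7.77% and 7.11%. The mt- share was lower in both, at 2.81% and 2.77% against 2.39% and 2.32% and at 4.67% and 4.79% against 4.11% and 4.11%. In the small tuft-like cluster the nuclear share was lower without overlap, at 5.33% and 4.88% against 4.43% and 4.15%. In the small enteroendocrine-like cluster it overlapped, at 3.93% and 4.90% against 3.85% and 4.17%. The transit amplifying and stem-like cells pooled several clusters whose mix differed between the genotypes, as given below.

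**Figure D1:**
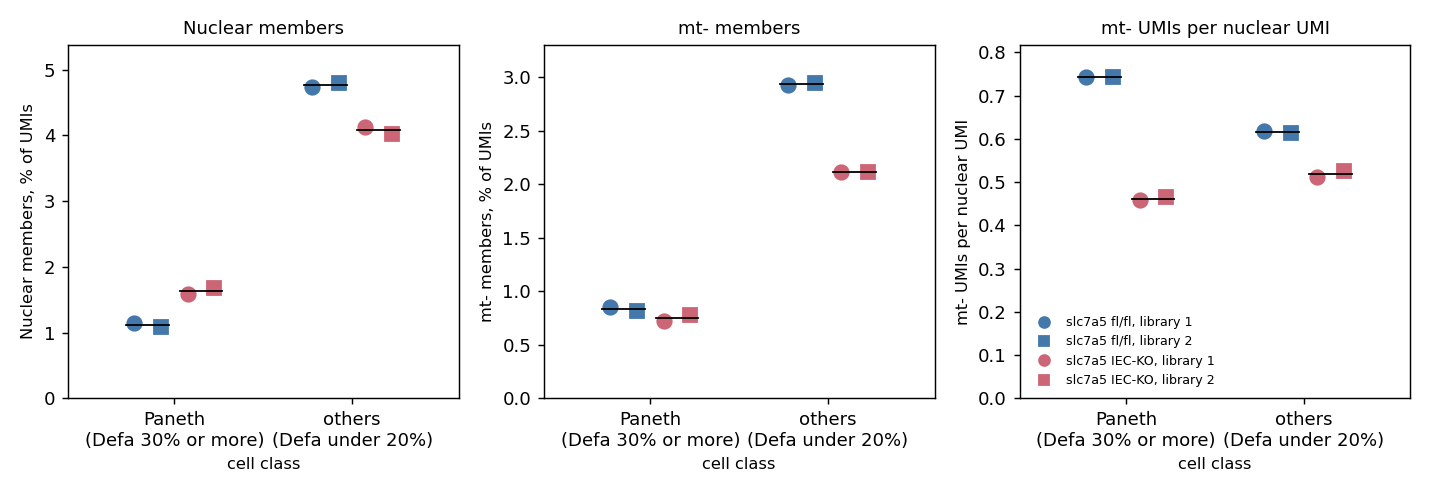
Share of UMIs of the nuclear members, share of the mt- members (both in % of all UMIs of the class) and mt- UMIs per nuclear UMI, for each library and cell class; points are libraries and lines are means of 2 libraries. In Paneth cells the ratio is 0.743 in both libraries labelled fl/fl and 0.458 and 0.465 in those labelled IEC-KO, and the genotypes sit closer together in other cells.

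The ratio was also lower where depth was matched. Among Paneth cells of 9670 to 15000 UMIs, it was 0.976 and 0.985 in the libraries labelled fl/fl (141 and 90 cells) and 0.454 and 0.456 in those labelled IEC-KO (980 and 801 cells). Among Paneth cells of 30000 to 50000 UMIs it was 0.743 and 0.743 against 0.445 and 0.463. In the libraries labelled fl/fl the ratio was thus higher in the shallower Paneth cells, while in those labelled IEC-KO it stayed between 0.445 and 0.465 over the 4 depth ranges. Among other cells of 9670 to 15000 UMIs it was 0.625 and 0.630 against 0.447 and 0.507, and among those of 15000 to 20000 UMIs it was 0.569 and 0.575 against 0.403 and 0.451. At matched depth the other cells labelled IEC-KO thus had a higher ratio than the Paneth cells only in replicate 2 at 9670 to 15000 UMIs, and a lower one in the remaining comparisons. The genotypes were therefore apart in every depth range for which all 4 libraries held at least 20 cells. These ranges do not cover the classes. Of the other cells labelled IEC-KO, only 532 of 6266 and 1487 of 5709 reached 9670 UMIs. The ranges ended at 50000 UMIs, whereas the median Paneth cell labelled fl/fl held 45862 and 52128, so many of those cells lay in no range.

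**Figure D2:**
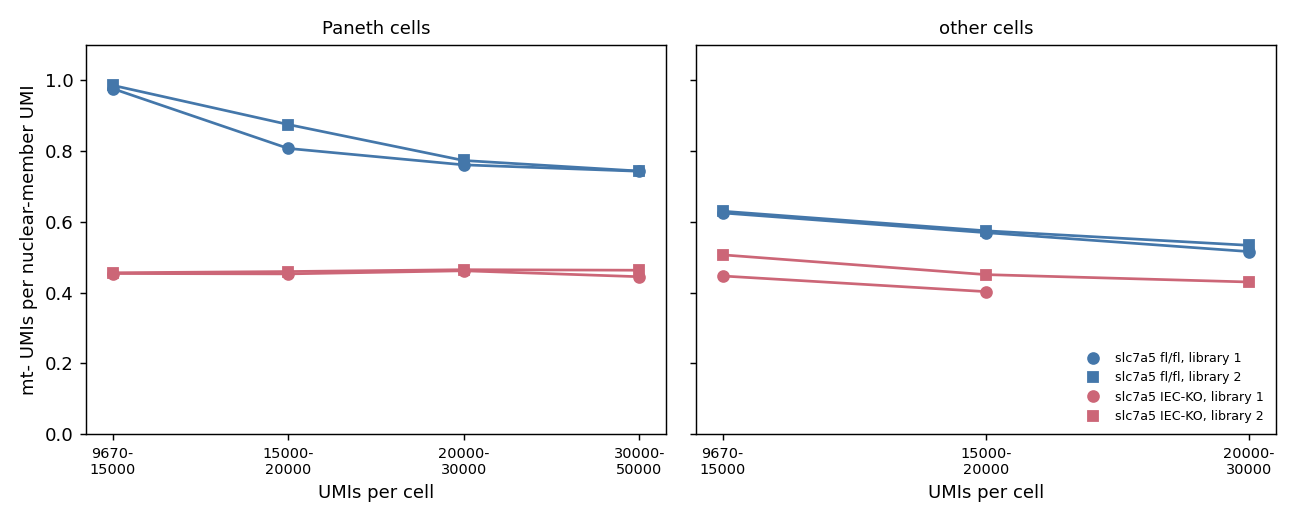
The mt- UMIs per nuclear-member UMI (y axis) in cells grouped by their total UMIs (x axis), for each library and class, with bins of under 20 cells left out. The libraries labelled fl/fl lie above those labelled IEC-KO in each bin, and in Paneth cells they fall from 0.976 and 0.985 in the shallowest bin to 0.743 in the deepest.

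By complex, the gap between the genotypes was widest at complex III, whose mt- member is cytochrome b, and narrowest at complex IV. In Paneth cells the UMIs of mt-Cytb per nuclear complex III UMI were 0.577 ± 0.0121 against 0.279 ± 0.000245 (SD, n = 2 each), or 0.485 of the fl/fl value. The same measure stood at 0.562 of the fl/fl value for complex I, 0.557 for complex V and 0.686 for complex IV. In other cells complex III stood at 0.699, complex I at 0.759, complex V at 0.814 and complex IV at 0.897. The order of complexes III, I and IV was thus shared by the classes, which come from the same libraries. This measure also moves with the nuclear members of each complex. Against the UMIs of all nuclear members, mt-Cytb stood at 0.539 of the fl/fl value in Paneth cells, beside 0.532 for mt-Nd1 and 0.542 for mt-Atp6. In other cells mt-Cytb stood at 0.772 and mt-Nd1 at 0.734, so mt-Cytb was not the lowest mt- gene.

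Single mt- genes were set against 1000 UMIs of all nuclear members of the same library. In Paneth cells 12 of 13 had lower values in both libraries labelled IEC-KO than in either labelled fl/fl, and mt-Nd3 overlapped. On this scale 23.6% of all 12696 tested genes were lower without overlap and 49.4% were higher. In other cells 9 of 13 mt- genes were lower without overlap, beside 24.0% of the 12323 tested genes lower and 43.5% higher, and the other 4 (mt-Nd2, mt-Nd3, mt-Nd6 and mt-Atp8) overlapped. mt-Co3, a catalytic-core subunit of complex IV, had 266 ± 0.736 per 1000 nuclear UMIs in Paneth cells against 147 ± 4.72, and mt-Nd1, a membrane subunit of complex I, had 62.6 ± 0.843 against 33.3 ± 1.16 (SD, n = 2 each). By contrast, mt-Co1, which holds the oxygen-reducing site of complex IV, had 179 ± 2.31 against 144 ± 4.70, and in other cells 151 ± 1.15 against 148 ± 2.35 (SD, n = 2 each). The mt- genes were therefore unequally lower, with ratios of 0.532 to 0.849 in Paneth cells.

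**Figure D3:**
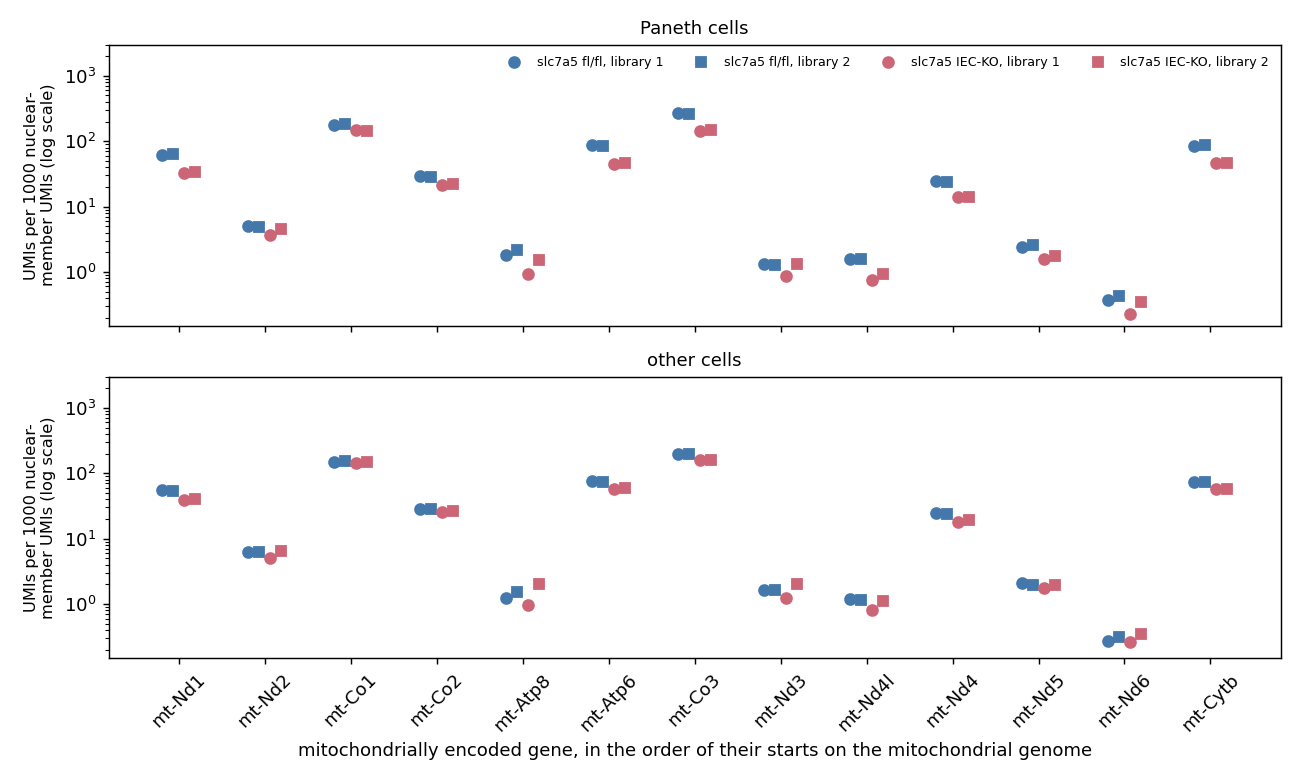
UMIs of each mt- gene per 1000 UMIs of all nuclear members (y axis, log scale) for each library, in Paneth cells (upper panel) and other cells (lower panel), in the order of the genes' starts. In Paneth cells the libraries labelled IEC-KO lie below those labelled fl/fl for every gene except mt-Nd3, where the libraries overlap.

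Genes were next tested one by one between genotypes, on UMIs summed per library and class. Levels are CPM, UMI counts scaled to a common total, adjusted by TMM, the trimmed mean of M-values, which sets the typical gene to no change, and differences are log2 values of IEC-KO minus fl/fl from edgeR's quasi-likelihood test, called at a Benjamini-Hochberg adjusted p under 0.05. In Paneth cells 13 of 13 mt- members were lower and none higher, beside 21.0% of all 12696 tested genes called lower and 21.2% called higher. Their median difference was -0.83, against -0.00 for all genes. Of the 81 nuclear members tested, 39 were lower and 7 higher, with a median of -0.18. Scaled by library size only, the median of all genes in Paneth cells was 0.70, which turned the nuclear members to 77 higher and 0 lower, and the mt- members to 3 higher and 6 lower. On that scale 74.6% of all genes were called higher and 3.34% lower. Against the median of all genes the mt- members were lower on both scales. The scales differ by a nearly common shift of all genes, so the second is no separate check. Scaled instead to the summed UMIs of the nuclear members, an alternative chosen after seeing the data, 12 of 13 mt- members were lower and 0 higher, and the nuclear members split into 13 higher and 11 lower, beside 33.1% of all genes called higher and 13.6% called lower. Without replicate 2 of the libraries labelled fl/fl, 23 nuclear members were lower on the TMM scale.

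Among the mt- members of complex I in Paneth cells, mt-Nd1 stood at 876 and 911 CPM in the libraries labelled fl/fl and at 411 and 443 CPM in those labelled IEC-KO, a difference of -1.06 (SE 0.09, edgeR adjusted p = 5.95e-08). mt-Nd4 stood at 346 and 339 CPM against 175 and 182 CPM. mt-Nd2 was closer, at 71.6 and 69.9 CPM against 46.1 and 58.8 CPM. The libraries of the genotypes were apart for all 3, and mt-Nd2 had the smallest difference of them at -0.43. mt-Nd4l (-1.05), mt-Nd5 (-0.73), mt-Nd6 (-0.57) and mt-Nd3 (-0.36) were lower as well, the last 2 with under 20 CPM in every library.

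Among the mt- members of the later complexes, mt-Cytb stood at 1195 and 1246 CPM against 578 and 604 CPM (difference -1.05, SE 0.09, edgeR adjusted p = 1.06e-07). mt-Co3 stood at 3762 and 3823 CPM against 1824 and 1958 CPM, whereas mt-Co1 stood at 2502 and 2600 CPM against 1870 and 1832 CPM. The differences of -1.004 for mt-Co3 and -0.46 for mt-Co1 show how far subunits of one complex, cut from one precursor strand, were apart. mt-Co2 (-0.59) lay between them. mt-Atp6, the proton-channel subunit of the ATP synthase, stood at 1224 and 1197 CPM against 576 and 602 CPM, and mt-Atp8, whose end overlaps it, at 25.7 and 31.0 CPM against 11.7 and 19.6 CPM.

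The nuclear members of complex I, which number 37 in Paneth cells, had 1 higher and 16 lower, beside 21.2% and 21.0% of all genes. The 1 higher was Ndufa4l2, which was counted here by its symbol and had 3 and 2 UMIs in the libraries labelled fl/fl. Ndufa13 stood at 224 and 236 CPM against 174 and 177 CPM, Ndufb8 at 110 and 115 CPM against 78.1 and 78.6 CPM, and Ndufb9 at 203 and 214 CPM against 169 and 162 CPM. These 3 accessory subunits had differences of -0.52 to -0.33. Ndufa2 stood at 257 and 252 CPM against 264 and 289 CPM and did not pass the test (edgeR adjusted p = 0.235). Scaled by library size only, where the median of all genes was 0.70, the same 3 had differences of 0.18 to 0.37, below that median but of the opposite sign.

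All 4 members of complex II, the nuclear enzyme that oxidizes succinate, had negative differences in Paneth cells. Of these, 3 were called lower, beside 21.0% of all genes. Sdha, the flavoprotein subunit, stood at 42.8 and 42.0 CPM against 27.9 and 28.2 CPM (difference -0.60, SE 0.06, edgeR adjusted p = 1.22e-06). Sdhb, the iron-sulfur subunit, stood at 84.4 and 86.6 CPM against 69.8 and 68.0 CPM, and Sdhc, a membrane anchor, at 43.5 and 44.6 CPM against 36.8 and 37.2 CPM. In other cells all 4 were called lower, beside 15.8% of all genes. There Sdha stood at 136 and 133 CPM against 95.9 and 93.0 CPM and Sdhd, the other membrane anchor, at 158 and 171 CPM against 117 and 119 CPM. With library size as the only scaling, Sdha, Sdhb and Sdhc had positive differences in Paneth cells (0.10, 0.39 and 0.45). On the TMM scale complex II was the complex with the largest share of its nuclear members lower, at 3 of 4 and 4 of 4. The other cells of the genotypes lay largely in different clusters, however. In transit amplifying and stem-like cells 2 of 4 were lower, beside 3.01% of all genes. In enterocyte-like cells 0 of 4 were lower, beside 1.67%.

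Complex III held one of the few rises that both classes shared. Uqcrq, a small nuclear subunit, stood at 452 and 461 CPM against 650 and 649 CPM in Paneth cells (difference 0.51, SE 0.08, edgeR adjusted p = 1.06e-04) and at 1084 and 1129 CPM against 1551 and 1558 CPM in other cells (difference 0.49, SE 0.06, edgeR adjusted p = 1.62e-05). In Paneth cells Uqcr11, another small subunit, was lower (498 and 481 CPM against 389 and 443 CPM), while Uqcr10 stood at 425 and 428 CPM against 375 and 406 CPM and did not pass the test (edgeR adjusted p = 0.230). Hence small subunits of the same complex had differences of opposite sign on this scale, while scaled by library size only all 3 were positive, Uqcrq foremost at 1.21. In other cells Uqcrh, a further subunit, stood at 1189 and 1216 CPM against 1179 and 1113 CPM and did not pass the test.

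At complex IV, 15 nuclear members were tested in Paneth cells and 9 were lower and 3 higher, beside 21.0% and 21.2% of all genes. Scaled by library size only, 12 were higher and 0 lower, beside 74.6% and 3.34% of all genes. The falls in this paragraph thus hold on the TMM scale. Of the ubiquitous subunits, Cox4i1 stood at 790 and 815 CPM against 631 and 618 CPM, Cox6b1 at 377 and 391 CPM against 262 and 274 CPM and Cox6c at 403 and 404 CPM against 295 and 337 CPM. Cox7a2 (-0.23) and Ndufa4 (-0.34), which is now counted with this complex, were lower too. Cox8a stood at 563 and 604 CPM against 558 and 561 CPM, Cox6a1 at 303 and 338 CPM against 286 and 280 CPM and Cox7b at 167 and 172 CPM against 165 and 165 CPM, and none of the 3 passed the test. Cox7a2l, a relative of Cox7a2 that takes part in supercomplexes of complexes III and IV, rose from 107 and 111 CPM to 173 and 155 CPM (difference 0.59, SE 0.07, edgeR adjusted p = 6.91e-06), and Cox7c rose by 0.22 on the log2 scale.

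Of the subunits of complex IV that are known from muscle, testis or lung, Cox6a2, Cox7a1 and Cox6b2 were detected. Cox8b, Cox8c and Cox7b2 had no UMI in either class, and Cox4i2 had 1 UMI in the Paneth cells and 1 in the other cells. Cox6a2, the form of Cox6a known from heart and skeletal muscle (chr7:128205435-128206387, minus strand), had 7 and 2 UMIs in the Paneth cells of the libraries labelled fl/fl and 387 and 533 in those labelled IEC-KO. Relative to total UMIs this was 193-fold higher, with an exact 95% interval of 101 to 423 that covers counting error only. In other cells it had 2 and 5 UMIs against 284 and 346, which was 30.5-fold higher (14.7 to 76.1). The edgeR difference in Paneth cells was 6.87 (SE 0.25, edgeR adjusted p = 1.66e-12), a value that depends on the low counts of the libraries labelled fl/fl.

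Cox7a1, also known from muscle, went the other way. It stood at 30.3 and 27.1 CPM against 13.3 and 20.2 CPM in Paneth cells (difference -0.76, SE 0.12, edgeR adjusted p = 9.88e-05) and at 112 and 115 CPM against 74.8 and 91.8 CPM in other cells. Under scaling by library size only its difference in Paneth cells was -0.06 and did not pass the test. Cox6b2, known from testis, had 111 and 117 UMIs in Paneth cells against 35 and 89, which relative to total UMIs was 1.03-fold (0.818 to 1.28, counting error only), and its scaled difference was -0.68. Ndufa4l2, the hypoxia-related relative of Ndufa4 that was counted with complex I by its symbol, had 3 and 2 UMIs in Paneth cells against 27 and 21, or 18.1-fold relative to total UMIs (7.25 to 58.3, counting error only). In other cells Ndufa4l2 had 1 and 3 UMIs against 8 and 7, or 1.27-fold (0.404 to 5.26). Cox6b2 was 0.628-fold there (0.508 to 0.778), both intervals again for counting error only.

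At complex V, 17 nuclear members were tested in Paneth cells, and 8 were lower and 2 higher, beside 21.0% and 21.2% of all genes. Scaled by library size only, 17 were higher and 0 lower, beside 74.6% and 3.34% of all genes. The falls at this complex thus hold on the TMM scale. Atp5j2 stood at 449 and 451 CPM against 334 and 367 CPM, and Atp5g1, one of the genes for the membrane ring subunit c, at 416 and 444 CPM against 379 and 364 CPM. Atp5g2, another gene for the same subunit, was among those higher. Atp5e stood at 441 and 404 CPM against 379 and 419 CPM, with libraries that overlapped, and did not pass the test (edgeR adjusted p = 0.472). Atp5s, which encodes a coupling factor, rose from 1.49 and 1.52 CPM to 2.21 and 2.23 CPM.

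**Figure D4:**
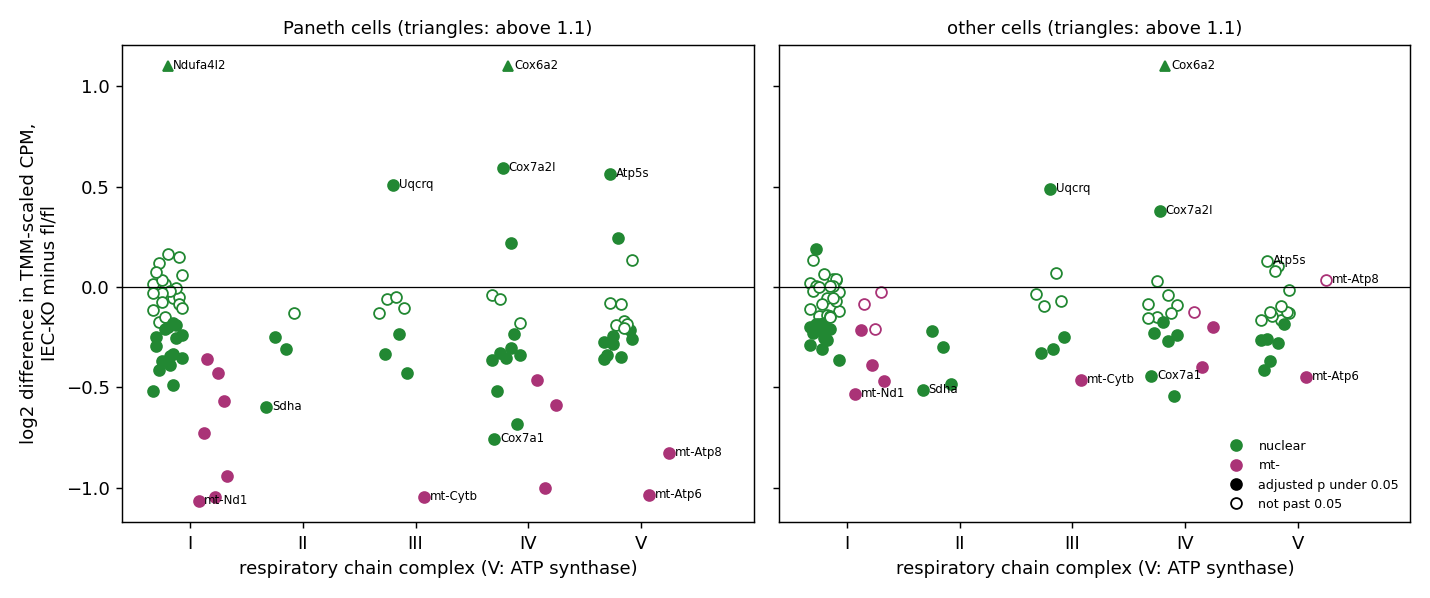
Log2 difference in TMM-scaled CPM (IEC-KO minus fl/fl, y axis) of each tested member by complex (x axis), in Paneth cells and other cells; filled points passed an edgeR adjusted p under 0.05, and triangles lie above the axis. On this scale the 13 mt- members of Paneth cells lie between -1.06 and -0.36 and the nuclear members have a median of -0.18, while scaling by library size only put 77 nuclear members higher.

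In other cells 8 of 13 mt- members were lower and none higher, beside 15.8% of the 12323 tested genes called lower and 16.1% called higher. Their median difference was -0.21, against -0.14 for the 80 nuclear members, of which 32 were lower and 4 higher. The mt- median was -0.44 without replicate 2 of the libraries labelled IEC-KO, where 12 were lower, and -0.19 without replicate 1, against -0.11 and -0.17 for the nuclear members, and it was -0.38 with a common lower limit of 9670 UMIs per cell. mt-Nd1 stood at 2462 and 2483 CPM against 1700 and 1711 CPM (difference -0.54, SE 0.07, edgeR adjusted p = 6.82e-06), mt-Cytb at 3323 and 3399 CPM against 2468 and 2411 CPM, and mt-Atp6 at 3471 and 3375 CPM against 2525 and 2495 CPM. mt-Co1 stood at 6790 and 6963 CPM against 6337 and 6294 CPM and did not pass the test (edgeR adjusted p = 0.195). For mt-Atp8 the libraries labelled IEC-KO themselves differed, at 42.3 and 85.3 CPM, around the 55.5 and 70.1 CPM of those labelled fl/fl. Without replicate 1 or 2 of the libraries labelled fl/fl, 14 and 15 nuclear members were lower, and without replicate 1 of those labelled IEC-KO, 49 were lower and 2 mt- members were higher. The nuclear rises were Cox6a2, Uqcrq, Cox7a2l (309 and 309 CPM against 420 and 384 CPM) and Ndufa2 (627 and 650 CPM against 724 and 733 CPM). Cox4i1, Cox8a, Cox6a1 and Cox7c had libraries that overlapped. Atp5g3, a further gene for subunit c, stood at 511 and 526 CPM against 385 and 393 CPM, while Atp5l stood at 1143 and 1175 CPM against 1068 and 1055 CPM and did not pass the test. Scaled by library size only, 57 nuclear members were lower and 3 higher and 10 mt- members were lower, beside 28.0% of all genes called lower and 9.50% called higher.

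Whether the genotype difference itself differed between the classes was tested in 1 model with library as a block. The other cells of the genotypes lay largely in different clusters, and this test cannot tell class from that make-up. For 13 of 13 mt- members the difference was more negative in Paneth cells, with a median of -0.52, beside 12.0% of the 12984 tested genes called lower in this test and 12.6% called higher. With a common lower limit of 9670 UMIs per cell the median was -0.33 and 12 of 13 were lower. mt-Atp6 had a difference between the classes of -0.58 (SE 0.06, edgeR adjusted p = 6.17e-12) and mt-Nd2 one of -0.21 (SE 0.06, edgeR adjusted p = 0.00393). The nuclear members split into 11 higher and 15 lower, with a median of -0.02. With library size as the only scaling, the median of all genes in this test was 0.81, and 10 mt- and 81 nuclear members were then called higher and none lower, beside 76.1% and 0.462% of all genes. Scaled to the nuclear members, 12 of 13 mt- members were lower and 0 higher, beside 8.63% of all genes called lower and 14.1% called higher.

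Set against other cells of the same libraries, Paneth cells labelled fl/fl had 55 nuclear members lower and 10 higher, beside 31.1% and 27.3% of the 12984 tested genes, and 4 mt- members lower and 5 higher. mt-Co3 was higher in those Paneth cells by 0.28 and mt-Nd2 lower, with a difference of -0.49. In the libraries labelled IEC-KO, 61 nuclear members were lower in Paneth cells and 9 higher, beside 26.9% and 26.5% of all genes, and 13 of 13 mt- members were lower, with a median of -0.50, which was -0.29 with 12 lower under the common lower limit of 9670 UMIs. Scaled by library size only, over 90% of all genes were lower in Paneth cells of either genotype (92.7% and 90.2%), and 1.22% and 1.90% were higher, while 13 of 13 mt- members were lower in both. With scaling to the nuclear members 37.2% of all genes were higher and 20.9% lower in Paneth cells labelled fl/fl, with 9 mt- members higher and 2 lower, and 45.1% were higher and 13.6% lower in those labelled IEC-KO, with 0 and 10.

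Within the other cells, clusters grouped by name gave the same order of the ratio in most cases. In the transit amplifying and stem-like clusters it was 0.575 and 0.567 in the libraries labelled fl/fl (553 and 448 cells) against 0.486 and 0.492 (1083 and 1076 cells). These pool clusters 4, 6 and 8, with nuclear shares of 5.70%, 4.22% and 4.02%, and their mix differed between the genotypes. Cluster 8 held 72 and 54 of these cells labelled fl/fl and 317 and 319 of those labelled IEC-KO. The part of this mix in the difference was not tested. In the enterocyte-like cluster it was 0.645 and 0.648 (219 and 177 cells) against 0.529 and 0.577 (552 and 493 cells), and in the tuft-like cluster 0.649 and 0.629 (15 and 22 cells) against 0.539 and 0.572 (115 and 89 cells). In the enteroendocrine-like cluster the libraries overlapped, at 0.762 and 0.518 (14 and 11 cells) against 0.519 and 0.502 (91 and 66 cells). Paneth-like clusters with under 20% Defa UMIs had 0.651 and 0.658 against 0.372 and 0.395, but the genotypes fell into different clusters there, cluster 5 with 1107 of its 1117 cells labelled fl/fl and cluster 9 with none. Cluster 5 held 44.2% and 41.3% of the other cells labelled fl/fl. Its name is uncertain, as 4 Paneth but also 5 goblet markers were raised in it, against 8 and 0 in cluster 9. The goblet-like cluster held 5 and 2 cells of the libraries labelled fl/fl and was not compared. The unnamed clusters held 3000 and 2945 cells labelled IEC-KO, or 47.9% and 51.6% of the other cells of those libraries, against 2 and 1 cells labelled fl/fl. Most other cells labelled IEC-KO therefore lay in clusters with almost no cells labelled fl/fl. Genotype and cluster cannot be told apart for them, nor for the cells of cluster 5. Among the unnamed clusters, cluster 0 had 7 goblet markers raised and 1 Paneth marker, beside 6 and 0 in the goblet-like cluster. Cluster 1 had 3 Paneth and 2 goblet markers raised, and cluster 7 had 1 of each.

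**Figure D5:**
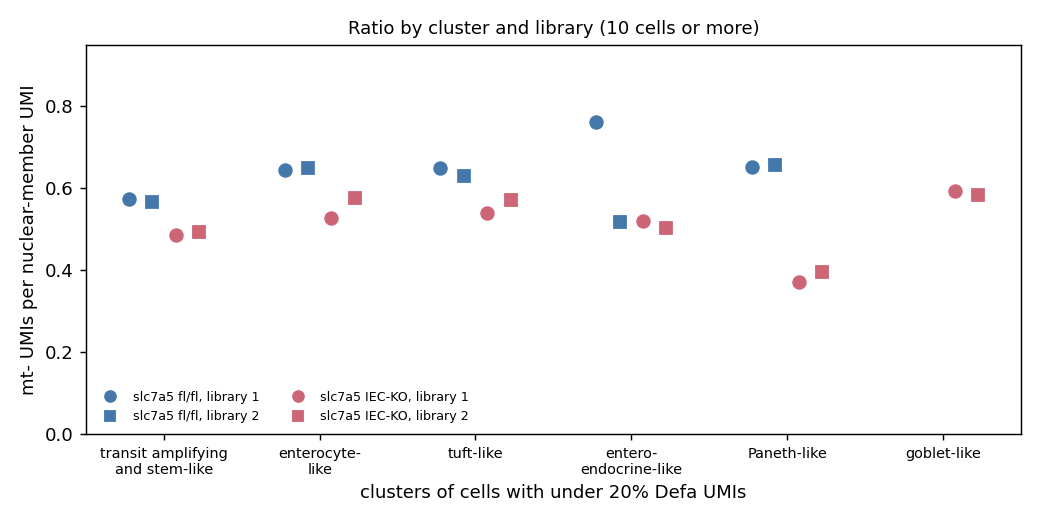
The mt- UMIs per nuclear-member UMI (y axis) by cluster of the cells with under 20% Defa UMIs (x axis) and library, for libraries with at least 10 cells. The libraries labelled fl/fl lie above those labelled IEC-KO in the transit amplifying and stem-like, enterocyte-like, tuft-like and Paneth-like clusters, and overlap in the enteroendocrine-like cluster. The Paneth-like points come almost wholly from a different cluster in each genotype, and the transit amplifying and stem-like points pool several clusters in unlike mixes.

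Tested one by one in the transit amplifying and stem-like cells, 5 mt- members were lower and none higher, beside 3.01% of the 10650 tested genes called lower and 4.90% called higher. These were mt-Nd1, mt-Nd4, mt-Atp6, mt-Co3 and mt-Cytb, with differences of -0.29 to -0.22. Of 80 nuclear members 2 were higher (Cox6a2 and Uqcrq, the latter at 1105 and 1160 CPM against 1387 and 1460 CPM) and 2 lower (Sdha and Sdhd). Without either replicate of the libraries labelled fl/fl, 0 mt- members were called lower. In the enterocyte-like cells, where 1.67% of the 8898 tested genes were lower and 3.05% higher, edgeR called no mt- member, and 4 of 13 had an unadjusted p under 0.05, all lower. The only nuclear member called was Cox6a2, at 0.381 and 1.35 CPM against 4.02 and 4.77 CPM. With library size as the only scaling the same numbers of members were called in both kinds of cells, beside 3.06% of genes higher and 3.83% lower in the transit amplifying and stem-like cells and 2.97% and 1.89% in the enterocyte-like cells.

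Lists of genes around the pathway were counted in the same tests, on the TMM scale, where 21.2% of all genes were called higher and 21.0% lower in Paneth cells, and 16.1% and 15.8% in other cells. Several of the counts below lie near these shares. These lists were chosen with earlier results known, and scaled by library size only most of their members were higher in Paneth cells and none was lower. Of 28 tested genes that copy, transcribe or process mitochondrial DNA and RNA, 8 were higher and 2 lower in Paneth cells, and 1 was higher and 8 lower in other cells. The rises in Paneth cells included Mterf3 (0.99), Tfb1m (0.87) and Tfb2m (0.35), while Tfam, which packages mitochondrial DNA, stood at 7.12 and 7.26 CPM against 7.54 and 7.80 CPM and did not pass the test there (edgeR adjusted p = 0.357). Levels were low for Mterf3 (0.732 and 0.809 CPM against 1.27 and 1.72 CPM) and Tfb1m (0.809 and 0.721 CPM against 1.63 and 1.23 CPM). In other cells Tfb2m (-0.26) and Tfam (-0.29) were called lower, and Mterf3 and Tfb1m did not pass the test. Of 12 regulators, Ppargc1a (-0.85) and Esrra (-0.55), known activators of nuclear respiratory genes, were lower in Paneth cells and Yy1 was higher, and 5 were lower and 1 higher in other cells. Of 18 genes of the tricarboxylic acid cycle, which feeds NADH and succinate to the chain, 8 were lower in Paneth cells and 12 in other cells, and none was higher. Of 46 assembly factors, 14 were higher and 3 lower in Paneth cells, with Sdhaf3 (0.70) and Coa6 (0.49) foremost, and 4 were higher and 5 lower in other cells. Of 8 electron carriers and related genes, 2 were lower in Paneth cells, among them Gpd2 (-0.86), and 4 in other cells. The counts in other cells compare genotypes that lay largely in different clusters. In transit amplifying and stem-like cells 4.90% of all genes were higher and 3.01% lower, and in enterocyte-like cells 3.05% and 1.67%. There 2 and 0 tricarboxylic acid cycle genes were lower, and no regulator or electron carrier was called. Of the assembly factors 2 and 1 were higher, and of the genes for mitochondrial DNA and RNA 1 and 0 were lower.

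The mitochondrial proteases and chaperones, listed with 2 factors of the stress response, had 7 of 14 higher and 1 lower in Paneth cells, and 5 higher and 2 lower in other cells. The shares over all genes were 21.2% higher and 21.0% lower in Paneth cells and 16.1% and 15.8% in other cells. In transit amplifying and stem-like cells 3 of this list were higher and 1 lower, beside 4.90% and 3.01% of all genes. In enterocyte-like cells 3 were higher and 0 lower, beside 3.05% and 1.67%. Lonp1, a matrix protease, stood at 6.42 and 6.18 CPM in Paneth cells against 18.7 and 17.6 CPM (difference 1.52, SE 0.08, edgeR adjusted p = 1.13e-10), and at 20.7 and 20.5 CPM against 32.9 and 31.4 CPM in other cells. Atf5 stood at 3.64 and 3.78 CPM against 77.7 and 73.0 CPM in Paneth cells, and Ddit3 at 8.53 and 7.22 CPM against 98.0 and 80.6 CPM. Of 15 genes known to respond to tissue dissociation, 8 were higher and 2 lower in Paneth cells, and 5 were higher and none lower in other cells. Immune markers took 0.00672% to 0.0105% of Paneth UMIs and 0.0432% to 0.0510% of those of other cells, with 3 of the 9 found at 0 in each class, among them Cd8a in both. Enterocyte markers were called lower in 14 of 14 cases in each class, at 0.0739% to 0.134% of Paneth UMIs and 0.275% to 0.548% of those of other cells, and 12 and 15 of 16 transit amplifying and stem markers were lower. In other cells 9 of 14 goblet, 7 of 12 enteroendocrine and 5 of 11 tuft markers were higher and none lower, whereas in Paneth cells 9 of 11 tuft and 6 of 12 enteroendocrine markers were lower and 1 and 2 higher, and goblet markers split into 5 and 5. These calls are on the TMM scale. Shares, by contrast, are sums over a list and can rest on few of its genes, which was not examined. As shares of Paneth UMIs, fl/fl against IEC-KO, tuft markers took 0.0456% and 0.0428% against 0.0980% and 0.0880%. With 1 of 11 tuft markers called higher, this sum need not stand for the whole list. Enteroendocrine markers took 0.0730% and 0.0738% against 0.0983% and 0.100%, and goblet markers 4.55% and 4.07% against 5.81% and 6.18%. Transit amplifying and stem markers overlapped, at 0.0266% and 0.0256% against 0.0262% and 0.0294%. The part of these markers in the differences of the members was not tested beyond the clusters above.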

How the data were processed

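The authors deposited raw UMI counts per gene and cell barcode for 4 libraries of the 10x Genomics 3′ kit; the submitters' notes name Cell Ranger 2.1.1 and mm10, the study's methods another release. From these counts, all 26498 barcodes were used (the study's later removal of immune clusters was not repeated), without removing doublets. Gene symbols were those of GENCODE M21, matched for 27645 of 27998 gene IDs. UMIs were summed per library and class and tested with edgeR 4.0.16 (TMM, filterByExpr, quasi-likelihood, Benjamini-Hochberg at 0.05), and DESeq2 1.42.0 was an alternative. The scripts were tested on simulated data. Other cells were clustered with scanpy 1.11.5 (2000 variable genes, 30 components, 20 neighbours, Leiden resolution 0.6), and clusters were named from marker lists. The members and lists were chosen with earlier results of these data known. Genes were named by rule: all mt- members, per class the 3 highest nuclear members of each complex, the 5 largest rises and falls past the threshold without overlap of libraries, and restricted isoforms with their ubiquitous forms. Cox7c in Paneth cells, Atp5g2 and the list members quoted were chosen after their values were seen. Library depths were 87922473 to 127094508 UMIs. Intervals cover counting error only. Analyses per cell were not run, as cells are not replicates.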

Additional observations from a re-analysis of the deposited data

Results flagged for a closer look

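The members below were singled out because their genotype difference differed between the classes in the edgeR test of that difference itself, which used library as a block and the TMM scale. Values are the log2 difference in Paneth cells minus that in other cells. All 13 mt- members were more negative in Paneth cells, namely mt-Atp6 (-0.58), mt-Atp8 (-0.86), mt-Co1 (-0.33), mt-Co2 (-0.38), mt-Co3 (-0.60), mt-Cytb (-0.57), mt-Nd1 (-0.52), mt-Nd2 (-0.21), mt-Nd3 (-0.28), mt-Nd4 (-0.46), mt-Nd4l (-0.66), mt-Nd5 (-0.50) and mt-Nd6 (-0.54). Of the named nuclear members, Atp5e (-0.18), Atp5j2 (-0.19), Cox4i1 (-0.26), Cox6b1 (-0.28), Cox6c (-0.17), Cox7a1 (-0.32), Ndufa13 (-0.24), Ndufb8 (-0.19) and Uqcr11 (-0.29) were more negative in Paneth cells. The value was positive for Cox7a2l (0.23), Cox7c (0.27), Ndufa4l2 (3.04) and Sdhd (0.36), of which Ndufa4l2 rests on 5 and 4 UMIs in the libraries labelled fl/fl. Scaled by library size only, 12 of the 13 mt- members had positive values and only mt-Atp8 stayed negative, beside a median of 0.81 over all genes. Depth and the Defa share differed between the genotypes. The other cells of the genotypes also lay largely in different clusters, and the values above cannot be told apart from that make-up. The median of the mt- values was -0.33 with a common lower limit of 9670 UMIs per cell (12 called lower), -0.60 with cells thinned to 2000 UMIs (9 called lower) and -0.52 with Defa genes left out of the TMM factors (13 called lower).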

How the results depend on the processing

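The ratio of mt- to nuclear UMIs was lower in the libraries labelled IEC-KO in both classes under every alternative run. In Paneth cells its log2 difference was -0.69, and it moved to -0.73 with cells thinned to 2000 UMIs and to -0.76 as a median over cells. In other cells it was -0.25, and it moved to -0.40 with a common lower limit of 9670 UMIs per cell, to -0.29 as a median over cells and to -0.22 with stricter class limits. The nuclear share of Paneth UMIs was higher by 0.417 percentage points with Defa genes taken by the files' own symbols, an alternative chosen after seeing the data, and by 0.411 with stricter class limits. The difference in the mt- share of Paneth cells was -0.116 as a median over cells and -0.121 with stricter limits. In other cells the difference in the nuclear share was -0.605 thinned, -0.856 with the common limit and -0.579 as a median, and that in the mt- share was -0.858 by the files' symbols, -0.749 thinned, -1.11 with the common limit, -0.623 as a median and -0.782 with stricter limits.

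Scaling by library size only changed counts in both classes and left those in the clusters as they were. Between genotypes it gave 77 nuclear members higher and 0 lower and 3 mt- members higher and 6 lower in Paneth cells, and 57 nuclear members lower in other cells. Within fl/fl libraries it gave 0 nuclear and 0 mt- members higher and 13 mt- members lower in Paneth cells, and within IEC-KO libraries 2 nuclear members higher. In the test of the difference between classes it gave 81 nuclear members higher and 0 lower and 10 mt- members higher and 0 lower. Over all nuclear members tested in Paneth cells, 80 of 81 differences were positive on that scale against 16 by TMM. Among the genes named by rule in Paneth cells, those that changed sign were mt-Nd2 0.27, mt-Co1 0.24, mt-Co2 0.11, mt-Nd3 0.34, mt-Nd6 0.13, Ndufa13 0.31, Ndufb9 0.37, Sdhb 0.39, Sdhc 0.45, Sdha 0.10, Uqcr11 0.46, Uqcr10 0.57, Cox4i1 0.34, Cox8a 0.64, Cox6c 0.35, Atp5e 0.61, Atp5g1 0.49, Atp5j2 0.34, Cox6b2 0.0168, Cox6b1 0.18, Ndufb8 0.18, Cox6a1 0.52, Cox7a2 0.47, Cox7b 0.66, Ndufa4 0.36. In the test between classes they were mt-Nd1 0.30, mt-Nd2 0.61, mt-Co1 0.49, mt-Co2 0.44, mt-Atp6 0.24, mt-Co3 0.23, mt-Nd3 0.54, mt-Nd4l 0.16, mt-Nd4 0.36, mt-Nd5 0.32, mt-Nd6 0.28, mt-Cytb 0.25.

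Scaling to the nuclear members, chosen after seeing the data, gave 13 nuclear members higher and 11 lower in Paneth cells, and 9 higher, 19 lower and 5 mt- members lower in other cells. Between classes it gave 20 nuclear members higher and 28 lower and 9 mt- members higher and 2 lower for fl/fl, 19 nuclear members higher and 29 lower for IEC-KO, and 5 nuclear members lower in the test of the difference. Thinned cells gave 3 nuclear members higher in Paneth cells, 18 nuclear and 5 mt- members lower in other cells, 35 nuclear members lower and 2 mt- members higher and 2 lower between classes for fl/fl, and 0 nuclear members higher and 3 lower in the test of the difference. Without a library block, 1 mt- member was higher between classes for fl/fl, and the test of the difference, where this was chosen after seeing the data, had 2 nuclear members higher, 0 lower and 8 mt- members lower. Without a filter on low counts, also chosen after seeing the data, that test had 5 nuclear members higher. DESeq2 called 11 mt- members lower and 0 higher in Paneth cells and 7 lower and 0 higher in other cells. Beyond what each alternative is built to change, the cause was not tested.

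Leaving out 1 library at a time gave 23 to 42 nuclear members lower in Paneth cells. In other cells it gave 14 to 49 nuclear members lower and 0 to 2 mt- members higher. Within fl/fl libraries 3 to 5 mt- members were higher in Paneth cells, and in the test of the difference 6 to 9 nuclear members were higher and 3 to 15 lower. In transit amplifying and stem-like cells 1 to 9 nuclear members were higher and 0 to 8 lower, and 0 to 3 mt- members were higher and 0 to 6 lower. In enterocyte-like cells 0 to 1 nuclear members were higher and 0 to 2 lower, and 0 to 2 mt- members were higher and 0 to 4 lower. In other cells mt-Atp8 had a difference of -0.56 without replicate 2 labelled IEC-KO, and mt-Nd3 one of 0.21 without replicate 1 labelled IEC-KO and of -0.46 without replicate 2. A lone library was assumed to vary like the other group. With the replicate number as a block, 6 nuclear members were higher and 35 lower in Paneth cells and 4 higher and 32 lower in other cells, with 13 and 9 mt- members lower. Over all tested genes, same-numbered libraries did not deviate together (correlations 0.0087 in Paneth and 0.042 in other cells). Counting error enters this measure, so it cannot exclude a pairing. With the block, the genes called higher and lower went from 1982 and 1949 to 2255 and 2222 in other cells. In Paneth cells they went from 2686 and 2660 to 2768 and 2742. Whether the numbers mark pairs is not known. With 2 libraries a group, small differences could not be told from the spread. Members with few UMIs, such as Ndufa4l2 and Cox6a2 in the libraries labelled fl/fl, are the least precise. Counts were low for Cox6b2 and mt-Nd6 as well.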
